A study of Mus musculus with 20 samples.

Results

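The genes described here are the integrins, the syndecans and the collagen receptors, the cell-surface proteins by which cells hold on to the extracellular matrix, together with 3 cytoplasmic proteins that sit behind them. They were chosen by gene symbol, as every integrin α subunit (Itga), integrin β subunits 1 to 8 (Itgb), syndecans 1 to 4 (Sdc), Cd44, Ddr1, Ddr2, Tln1, Vcl and Ptk2, which gave 36 of the 54532 genes in the count table. RNA was sequenced in bulk from the mouse temporomandibular joint (TMJ), the joint of the jaw, as the condylar head with a portion of the subchondral bone. All 20 libraries came from mice homozygous for a floxed Loxl2 allele and carrying Acan-CreERT2, a Cre recombinase that is expressed from the aggrecan gene and acts only once tamoxifen is given, so that deletion was aimed at cells that express aggrecan, such as chondrocytes. Mice were 6 months old at the first injection. The 8 libraries labelled Control came from mice given the vehicle, and the 12 labelled LOXL2_KO from mice given tamoxifen at 75 mg/kg in corn oil, daily for 5 days and then monthly, with collection after 4 months. Tamoxifen and deletion of Loxl2, which codes for a lysyl oxidase that crosslinks collagen, therefore cannot be told apart in this design. Both sexes were used in each group, but the labels give no sex for any library.

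Each integrin is a pair of 1 α and 1 β subunit, and the pair sets the ligand: β1 pairs with many α subunits to bind collagens, laminins or fibronectin, the αv integrins bind proteins with an RGD motif such as vitronectin, osteopontin and fibronectin, and β2 pairs with α subunits found on leukocytes. Talin opens the pair from inside the cell, and vinculin and focal adhesion kinase are recruited to the site. Syndecans are transmembrane proteins whose heparan sulfate chains bind matrix and growth factors, Cd44 binds hyaluronan, and the discoidin domain receptors are tyrosine kinases that are switched on by collagen. In joint cartilage, chondrocytes use α10β1 and α5β1 to bind collagen and fibronectin, and in bone the αvβ3 pair is the integrin of the osteoclast, the cell that resorbs bone.

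Several libraries stood apart, and this bears on what follows. Total counts ran from 11153820 to 27045668. Loxl2 itself was not lower in the libraries labelled LOXL2_KO (101 ± 26.9 against 64.5 ± 30.9 CPM, counts per 1000000 of the scaled total, SD, n = 12 and 8), with a log2 fold change of 0.64 (SE 0.28, adjusted p = 0.101, edgeR). A count per gene in bulk RNA sums all exons and all cells, while deletion was aimed at cells that express aggrecan. These values therefore do not show whether the deletion took place. By immunohistochemistry the study reports less LOXL2 in the knockout mice. The groups are called by their labels throughout. Control 5 correlated better with the LOXL2_KO libraries (median r 0.954 over genes) than with the other controls (0.942), and LOXL2_KO 5 better with the controls (0.952) than with its own group (0.940). LOXL2_KO 12 correlated about equally with both (0.940 and 0.939). In Control 6 and Control 8 a list of 7 chondrocyte markers, which included Col2a1 and Acan, summed to 194 and 41.6 CPM, against 1380 to 3063 CPM in the other 6 controls. It was also below that range in LOXL2_KO 5 (454 CPM), LOXL2_KO 7 (896 CPM) and LOXL2_KO 4 (1044 CPM). A list of 8 skeletal muscle markers summed to between 33907 and 168840 CPM over the 20 libraries, so that muscle RNA was present in each of them. The highest of these sums was that of Control 8. It was also the lowest control in the lists for osteoclasts, macrophages, osteoblasts and osteocytes, and fibroblasts and tendon, which are described further on. The share of counts from mitochondrial genes was 17.8% ± 2.8 in the controls and 13.6% ± 3.0 in the libraries labelled LOXL2_KO (p = 0.0053, exact permutation test, two-sided, over 125970 assignments), and the part of this in the members' values was not tested.

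Of the 36 members, 35 passed the filter on low counts, and 17 of these differed between the groups at an adjusted p under 0.05 (edgeR quasi-likelihood test, two-sided, Benjamini-Hochberg adjustment over all 15984 genes tested). That is 48.6% of the tested members, where 23.0% of all tested genes were called. Of the 17, 16 rose in the libraries labelled LOXL2_KO and 1, Itgb6, fell. Over all tested genes 12.0% were called higher and the rest of those called were lower. The median log2 fold change of the 35 was 0.51, against -0.02 over all tested genes, and 26 of the 35 were positive. Members were called in 7 of the 9 role groups: 6 of 8 β subunits, 3 of 4 syndecans, 2 of 3 in the set of Cd44 and the Ddr receptors, 2 of 4 RGD-binding α subunits, 2 of 4 tested leukocyte α subunits, 1 of 4 collagen-binding α subunits and 1 of 3 cytoplasmic proteins. None of the 3 laminin-binding α subunits and neither of α4 and α9 was called, with 0 and 1 of them at an unadjusted p under 0.05 in edgeR.

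**Figure D1:**
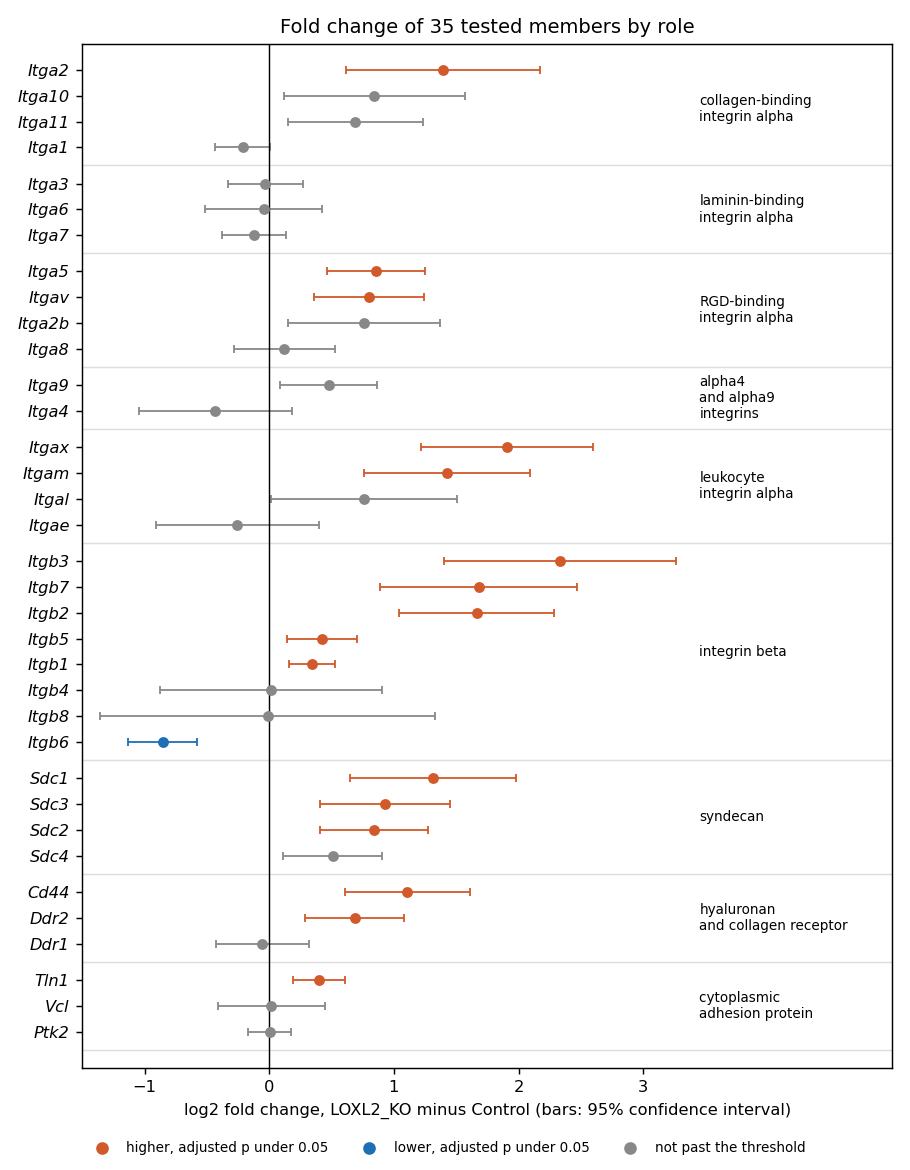
Log2 fold change (libraries labelled LOXL2_KO minus Control, edgeR) of the 35 tested members, in blocks by role, with bars for the 95% confidence interval. Orange points were called higher, the blue point (Itgb6, -0.86) lower, and gray points were not past an adjusted p of 0.05; Itgb3 lies farthest to the right at 2.33.

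These counts moved with the libraries that stood apart. Without both libraries numbered 5, 21 members were called, 20 higher and 1 lower, the 4 added being Itga9, Itga10, Itga11 and Sdc4, where 27.4% of all genes tested were called. Each of these libraries was picked for resembling the other group, so leaving both out tends to widen the differences between the groups. Leaving out Control 6 and Control 8, the 2 controls with few chondrocyte transcripts, gave 10 members, 9 higher and 1 lower, where 10.3% of all genes tested were called. The 10 were Itga5, Itgam, Itgax, Itgb2, Itgb3, Itgb7, Sdc1, Sdc2, Cd44 and Itgb6, and the 7 lost were Itga2, Itgav, Itgb1, Itgb5, Sdc3, Ddr2 and Tln1, whose adjusted p lay between 0.0543 and 0.142 there. Their log2 fold changes were 1.23, 0.73, 0.29, 0.33, 0.69, 0.59 and 0.31 in that order, against 1.39, 0.80, 0.34, 0.42, 0.93, 0.68 and 0.40 with all libraries. Control 8 was the lowest control for Itgb1, Sdc3, Ddr2 and Tln1, and Control 6 for Itgb5, so this omission tends to narrow those differences. For Itga2 and Itgav the lowest controls, Control 4 and Control 7, stayed in. The omission also leaves fewer controls, and the libraries labelled LOXL2_KO with low chondrocyte sums were kept. In bulk RNA, fewer cells of a type and less RNA per cell cannot be told apart, and the makeup of these samples is described with the marker lists further on.

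The β subunits held both the largest rise and the only fall. Itgb3 (β3, the partner of αv in osteoclasts and of αIIb in platelets, chromosome 11, 104608000 to 104670476, GRCm38) had 4.59, 17.6 and 49.2 CPM at the lowest, median and highest control and 25.5, 82.4 and 214 CPM at the same points of the libraries labelled LOXL2_KO. Its log2 fold change was 2.33 (SE 0.45, adjusted p = 0.00199), all 12 libraries labelled LOXL2_KO lay above the control median, and the groups met only through Control 5 (49.2 CPM), as the next highest control had 22.5 CPM. Itgb2 (β2, the leukocyte subunit, chromosome 10, 77530252 to 77565708) had 4.05, 4.94 and 18.05 CPM in the controls and 9.29, 23.0 and 38.1 CPM in the libraries labelled LOXL2_KO, a log2 fold change of 1.66 (SE 0.30, adjusted p = 0.00144). Here too the highest control was Control 5, and 9 of 12 libraries labelled LOXL2_KO exceeded it. Itgb7 (β7, which pairs with α4 and αE on lymphocytes and mast cells, chromosome 15, 102215995 to 102231944) was low throughout, with 1.37, 2.91 and 3.47 CPM against 2.08, 6.05 and 20.4 CPM. It rose by 1.68 (SE 0.38, adjusted p = 0.00495) on the log2 scale, and LOXL2_KO 5 was the lowest of its group.

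The abundant β subunits rose by less. Itgb1 (β1, the common partner of the matrix-binding α subunits, chromosome 8, 128685654 to 128733200) was the member with the highest level per length, and held 284, 312 and 373 CPM in the controls and 321, 394 and 483 CPM in the libraries labelled LOXL2_KO. The log2 fold change was 0.34 (SE 0.089, adjusted p = 0.0101); all 12 libraries labelled LOXL2_KO lay above the control median although the groups overlapped between 321 and 373 CPM. Itgb5 (β5, which pairs with αv to bind vitronectin, chromosome 16, 33829665 to 33949338) had 151, 196 and 239 CPM against 183, 252 and 387 CPM, a log2 fold change of 0.42 (SE 0.14, adjusted p = 0.0291). The call for Itgb5 was lost without Control 3 (0.41, adjusted p = 0.0535), Control 6 (0.38, adjusted p = 0.0592) or Control 8 (0.41, adjusted p = 0.0548). The other 16 calls held in each of the 20 fits that left out 1 library.

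Itgb6 (β6, an epithelial subunit that binds latent TGF-β with αv, chromosome 2, 60598292 to 60722643) went the other way. It had 30.1, 39.9 and 58.0 CPM in the controls and 14.9, 22.9 and 32.2 CPM in the libraries labelled LOXL2_KO, a log2 fold change of -0.86 (SE 0.13, adjusted p = 0.00104). Of the 12, 11 lay below every control. The exception was LOXL2_KO 5 at 32.24 CPM, above Control 5 at 30.1 CPM and just above Control 7 at 32.17 CPM. A list of 6 epithelial and salivary gland markers summed to 1.37 to 141 CPM (median 4.99) in the controls and 0.281 to 2511 CPM (median 5.23) in the libraries labelled LOXL2_KO, so that some libraries of both groups held far more of these markers than the rest. The library with most, LOXL2_KO 9, had Itgb6 at 22.1 CPM, beside a group median of 22.9 CPM. Among the controls Control 1 held most, with Itgb6 at 40.7 CPM beside a median of 39.9 CPM. A relation of Itgb6 to this list was not tested. Itgb4 (β4, the hemidesmosome subunit that binds laminin with α6) and Itgb8 (β8, another TGF-β activating partner of αv) did not pass the test, with log2 fold changes of 0.012 (95% confidence interval -0.88 to 0.90) and -0.014 (95% confidence interval -1.36 to 1.33), both with wide intervals. Both were spread unevenly over the libraries, Itgb8 from 0.995 to 20.7 CPM within the controls. A list of 6 Schwann cell markers summed to 1644 to 3357 CPM in Control 1, Control 5, LOXL2_KO 2, LOXL2_KO 8 and LOXL2_KO 10. In every other library it reached at most 366 CPM. Where the list was high, Itgb8 had 10.7 to 20.7 CPM and Itgb4 28.9 to 49.2 CPM. Elsewhere Itgb8 had at most 5.16 CPM and Itgb4 at most 23.1 CPM, and the relation was not tested.

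**Figure D2:**
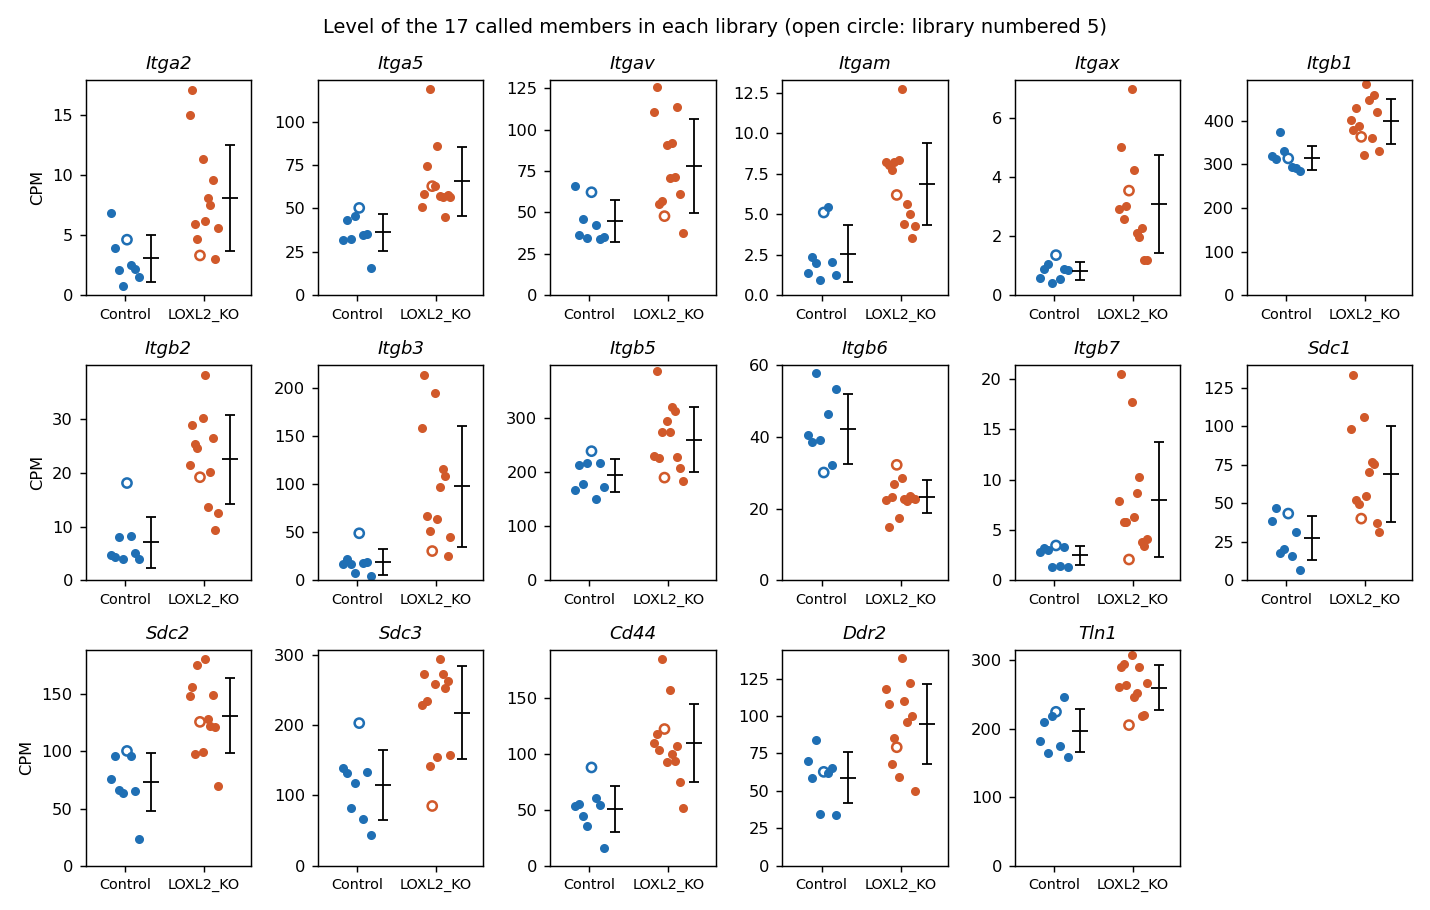
CPM of the 17 called members in each library (linear axis from 0), with a bar for the mean ± SD of each group and open circles for the libraries numbered 5. For Itgb6 the libraries labelled LOXL2_KO sit between 14.9 and 32.2 CPM and the controls between 30.1 and 58.0 CPM; in the other panels the libraries labelled LOXL2_KO sit higher, with overlap in each.

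No member had groups without any overlap in CPM, where 0.300% of all tested genes did. Without both libraries numbered 5, 6 of the 35 tested members had groups that did not overlap (Itgax, Itgb2, Itgb3, Itgb6, Itgb7 and Sdc3), against 2.18% of all tested genes. Since these libraries were picked for resembling the other group, leaving them out tends by itself to reduce overlap. For 9 members all 12 libraries labelled LOXL2_KO were above the control median (Itga2, Itga5, Itgam, Itgax, Itgb1, Itgb2, Itgb3, Sdc1 and Tln1), where 7.20% of all tested genes had this pattern.

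Of the 4 RGD-binding α subunits 2 rose. Itga5 (α5, the fibronectin receptor with β1, chromosome 15, 103344286 to 103366763) had 15.7, 34.99 and 50.3 CPM in the controls and 44.9, 57.8 and 119 CPM in the libraries labelled LOXL2_KO, and 11 of 12 exceeded every control. The log2 fold change was 0.86 (SE 0.19, adjusted p = 0.00397), and Control 8, at 15.7 CPM, was far below the other controls. Itgav (αv, chromosome 2, 83724397 to 83806916) had 33.9, 39.6 and 65.7 CPM against 37.4, 71.1 and 125 CPM, a log2 fold change of 0.80 (SE 0.21, adjusted p = 0.0109). Here the groups overlapped over a wide range, from 37.4 to 65.7 CPM. Itga2b (αIIb, the platelet fibrinogen receptor with β3) had a log2 fold change of 0.76 (95% confidence interval 0.15 to 1.37) and an adjusted p of 0.0656, while Itga8 (α8, which binds nephronectin) had 0.12 (95% confidence interval -0.28 to 0.52). Itga2b passed the threshold when any 1 of Control 1, Control 6, LOXL2_KO 1 or LOXL2_KO 11 was left out (adjusted p between 0.0400 and 0.0492).

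Of the 4 leukocyte α subunits tested, Itgam and Itgax rose and Itgal and Itgae did not pass the test. Itgam (αM, CD11b of macrophages and neutrophils, chromosome 7, 128062640 to 128118491) had 0.954, 2.03 and 5.46 CPM in the controls and 3.54, 6.95 and 12.7 CPM in the libraries labelled LOXL2_KO. Its log2 fold change was 1.43 (SE 0.32, adjusted p = 0.00452), and 8 of 12 libraries exceeded every control. Itgax (αX, CD11c of dendritic cells and macrophages, chromosome 7, 128129547 to 128150657) had 0.417, 0.860 and 1.36 CPM against 1.20, 2.75 and 6.97 CPM, a log2 fold change of 1.91 (SE 0.33, adjusted p = 0.00129). These are low counts, and the highest control, Control 5 at 1.36 CPM, was exceeded in 10 of 12. Itgal (αL, LFA-1 of lymphocytes) had 0.76 (95% confidence interval 0.011 to 1.505) and Itgae (αE, of intraepithelial T cells) -0.26 (95% confidence interval -0.91 to 0.40). Itgad (αD) did not pass the filter, with 0.408 ± 0.486 CPM in the controls and 0.515 ± 0.398 CPM in the libraries labelled LOXL2_KO. Exons of Itgam share 68.7% of their bases with Gm49368 on the same strand, which had between 0 and 4 counts, so that the value of Itgam is uncertain in how reads were split between them.

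Itgam and Itgax are neighbours on chromosome 7. The 250 bases before their transcription starts are shown beside those of Cd44, another member that rose, and of Itgb6, the member that fell (the outer of its 2 starts), from RefSeq on GRCm38.p6, 5′ to 3′ along each gene. Capitals mark matches to a PU-box (GAGGAA, read as TTCCTC from the other strand), the purine-rich core bound by the myeloid ETS factor PU.1, and to an AP-1 site (TGANTCA), searched on both strands, which share no bases with each other here.
Itgam, chr7:128062390-128062639 (plus strand): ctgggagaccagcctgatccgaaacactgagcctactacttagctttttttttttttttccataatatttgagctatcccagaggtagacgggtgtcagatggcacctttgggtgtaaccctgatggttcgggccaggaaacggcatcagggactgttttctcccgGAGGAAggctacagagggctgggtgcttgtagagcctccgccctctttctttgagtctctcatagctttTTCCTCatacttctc
Itgax, chr7:128129300-128129549 (plus strand): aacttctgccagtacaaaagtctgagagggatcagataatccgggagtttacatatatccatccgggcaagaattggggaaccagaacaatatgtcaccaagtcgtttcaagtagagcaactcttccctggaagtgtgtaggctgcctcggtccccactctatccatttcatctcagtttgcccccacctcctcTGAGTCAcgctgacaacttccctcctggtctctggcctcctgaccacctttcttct
Cd44, chr2:102901666-102901915 (minus strand): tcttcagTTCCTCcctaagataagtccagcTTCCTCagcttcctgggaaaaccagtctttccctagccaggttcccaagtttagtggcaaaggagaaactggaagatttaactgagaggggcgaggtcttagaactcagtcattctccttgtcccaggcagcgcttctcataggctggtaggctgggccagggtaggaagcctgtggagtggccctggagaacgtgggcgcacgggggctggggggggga
Itgb6, chr2:60722604-60722853 (minus strand): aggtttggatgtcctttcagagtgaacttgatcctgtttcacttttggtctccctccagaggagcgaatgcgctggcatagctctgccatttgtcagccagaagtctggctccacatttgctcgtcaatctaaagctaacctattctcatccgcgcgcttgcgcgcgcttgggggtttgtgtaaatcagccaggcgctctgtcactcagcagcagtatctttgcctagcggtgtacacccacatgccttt
The PU-box was found in 7639 of all 32851 RefSeq promoter entries (23.25%) and in 11 of the 26 members with an entry, 7 of them among the 13 with an entry that rose. Counted by entry, as for all genes, it was in 11 of the members' 31. It lay 84 and 15 bases before the start of Itgam, 243 and 220 bases before that of Cd44, and 35 bases before the inner start of Itgb6, which is not shown. The AP-1 site was found in 6.75% of entries and in 2 of 26 members, Itgax (56 bases before its start) and Ddr1. Other motifs searched were the GC box GGGCGG (11 of 26 members and 14 of their 31 entries, against 32.74% of all entries), the RUNX site TGTGGT (2 of 26, 14.05%), the TATA box TATAAA (1 of 26, Ddr2, 12.37%) and the CArG box of serum response factor (2 of 26, Vcl and the inner start of Itgb6, 1.47%). A match is a run of letters in this window and not a measured binding site.

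The collagen-binding α subunits pair with β1. Itga2 (α2, of platelets and many adherent cells, chromosome 13, 114833081 to 114932100) was the one past the threshold, with 0.775, 2.34 and 6.87 CPM in the controls and 3.05, 6.85 and 17.1 CPM in the libraries labelled LOXL2_KO. Its log2 fold change was 1.39 (SE 0.38, adjusted p = 0.0121), and all 12 libraries lay above the control median although only 6 exceeded every control. Itga11 (α11, of fibroblasts and osteoblasts, chromosome 9, 62677826 to 62783982) had the highest level per length in this set, with 12.4, 56.7 and 74.2 CPM against 45.4, 81.0 and 103 CPM. Its log2 fold change of 0.69 (95% confidence interval 0.15 to 1.23) had an adjusted p of 0.0589, and Control 8, at 12.4 CPM, was its lowest control. Itga10 (α10, of chondrocytes) had 0.84 (95% confidence interval 0.11 to 1.57) with an adjusted p of 0.0856. Both passed the threshold without Control 5 (adjusted p of 0.0343 for Itga11 and 0.0432 for Itga10) or without LOXL2_KO 5 (0.0387 and 0.0376), and Itga11 also without LOXL2_KO 12 (0.0492). Without Control 6 and Control 8, in turn, their values were 0.38 and 0.50. Itga1 (α1, of smooth muscle and mesenchymal cells) had -0.21 (95% confidence interval -0.43 to 0.0027). Of the exon bases of Itga10, 33.5% are shared with Gm42957 on the same strand.

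The laminin-binding α subunits did not pass the test. Itga7 (α7, of muscle fibres, chromosome 10, 128933818 to 128958282) was the highest of them per length and had 93.2, 127 and 174 CPM in the controls against 76.9, 112 and 163 CPM in the libraries labelled LOXL2_KO, a log2 fold change of -0.12 (95% confidence interval -0.38 to 0.14). For Itga6 the value was -0.045 (95% confidence interval -0.52 to 0.43) and for Itga3 -0.030 (95% confidence interval -0.33 to 0.27), the interval of Itga6 being the widest of the 3. Of the other pair, Itga9 (α9, which binds tenascin and osteopontin, chromosome 9, 118606690 to 118901003) had 5.74, 13.0 and 18.1 CPM against 12.9, 16.9 and 28.4 CPM, a log2 fold change of 0.48 (95% confidence interval 0.087 to 0.87) with an adjusted p of 0.0698, and it passed without Control 2 (0.0391) or LOXL2_KO 5 (0.0487). Itga4 (α4, which binds VCAM-1 and fibronectin) had -0.43 (95% confidence interval -1.05 to 0.18), where Control 8 alone held 14.1 CPM against a control median of 3.22 CPM; without that library the value was 0.0063.

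Of the 4 syndecans 3 rose. Sdc1 (syndecan-1, of epithelia and plasma cells, chromosome 12, 8771323 to 8793715) had 6.81, 26.1 and 46.8 CPM in the controls and 31.2, 62.4 and 134 CPM in the libraries labelled LOXL2_KO, a log2 fold change of 1.31 (SE 0.32, adjusted p = 0.00732), with 12 of 12 above the control median. Sdc2 (syndecan-2, of mesenchymal cells, chromosome 15, 32920723 to 33034935) had 23.4, 71.2 and 100.5 CPM against 69.8, 127 and 181 CPM, a log2 fold change of 0.84 (SE 0.21, adjusted p = 0.00817). Sdc3 (syndecan-3, of nerve, muscle and growing cartilage, chromosome 4, 130792537 to 130826319) had 43.6, 125 and 203 CPM against 85.0, 244 and 295 CPM, a log2 fold change of 0.93 (SE 0.25, adjusted p = 0.0127). Control 8 was the lowest control for each of the 4 syndecans, and Control 5 the highest for Sdc2 and Sdc3. Sdc4 (syndecan-4, found at focal adhesions, chromosome 2, 164424247 to 164443887) had the highest level per length in this family, 32.4, 75.8 and 92.0 CPM against 54.7, 95.7 and 139 CPM. At 0.51 (95% confidence interval 0.11 to 0.90) and an adjusted p of 0.0575 it missed the threshold, which it passed without Control 4, LOXL2_KO 5, LOXL2_KO 7 or LOXL2_KO 12 (adjusted p between 0.0263 and 0.0450).

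Cd44 (the hyaluronan receptor, chromosome 2, 102811141 to 102901665) had 15.8, 53.8 and 87.7 CPM in the controls and 51.4, 105 and 184 CPM in the libraries labelled LOXL2_KO, and 10 of 12 exceeded every control. Its log2 fold change was 1.11 (SE 0.24, adjusted p = 0.00389). Of the collagen-activated kinases, Ddr2 (of mesenchymal cells, activated by fibrillar collagen, chromosome 1, 169972307 to 170110762) had 33.8, 62.1 and 83.7 CPM against 50.1, 97.7 and 139 CPM, a log2 fold change of 0.68 (SE 0.19, adjusted p = 0.0151), and Ddr1 (mainly of epithelia) had -0.055 (95% confidence interval -0.43 to 0.32). Ddr2 was lowest in Control 8 (33.8 CPM) and Control 4 (34.7 CPM), and Ddr1 was highest in Control 8 (42.6 CPM).

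Behind the receptors, Tln1 (talin-1, which activates integrins from inside the cell, chromosome 4, 43531519 to 43562691) had 158, 196 and 246 CPM in the controls and 205, 262 and 307 CPM in the libraries labelled LOXL2_KO, a log2 fold change of 0.40 (SE 0.10, adjusted p = 0.00887), with 12 of 12 above the control median. Vcl (vinculin) and Ptk2 (focal adhesion kinase) did not pass the test, at 0.015 (95% confidence interval -0.42 to 0.45) and 0.0027 (95% confidence interval -0.17 to 0.18). The interval of Ptk2 thus reached no further than 0.18 on the log2 scale. Of the exon bases of Vcl, 25.5% overlap Ap3m1 on the opposite strand, and whether counting used strand is not stated.

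**Figure D3:**
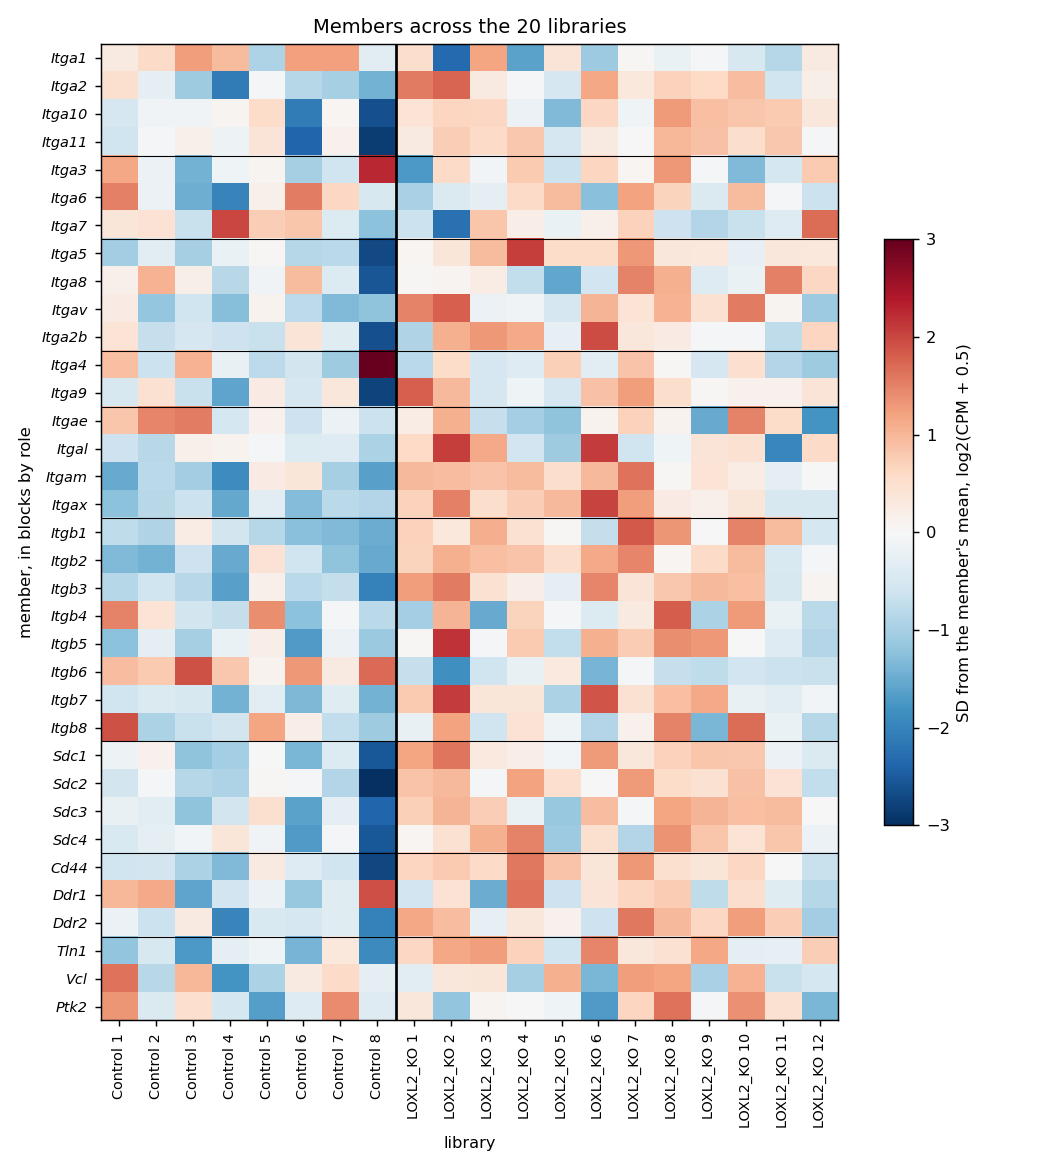
Level of the 35 tested members in each of the 20 libraries, as SDs from the member's own mean on the log2(CPM + 0.5) scale, in blocks by role. Control 8 is the lowest control in the rows of Itga5, Cd44, Ddr2 and all 4 syndecans, and Control 5 lies nearer to the libraries labelled LOXL2_KO than the other controls in the rows of Itgb2 and Itgb3.

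A ratio of 2 genes within a library depends little on how libraries are scaled, so 7 ratios of subunits or receptors were compared by an exact permutation test (two-sided, 125970 assignments, adjusted over the 7). Itgb3 relative to Itgb1 was higher by 1.99 on the log2 scale in the libraries labelled LOXL2_KO (exact adjusted p = 0.002, 12 of 12 above the control median), and Itgb2 relative to Itgb1 by 1.41 (exact adjusted p = 0.002, 12 of 12). Itgb3 and Itgb2 thus rose by more than the abundant Itgb1. Each ratio combines 2 levels from the same libraries that were compared above, so its p-value is not separate from those fold changes. Sdc1 relative to Sdc4 was higher by 0.88 (exact adjusted p = 0.0283, 10 of 12), and Ddr2 relative to Ddr1 by 0.71 (exact adjusted p = 0.0328, 10 of 12). The last was lost without both libraries numbered 5 (0.74, exact adjusted p = 0.0509), and without Control 4, or without Control 8, 2 of the 7 ratios passed, those of Itgb3 and Itgb2 to Itgb1. Itga11 relative to Itga10 (-0.16, exact adjusted p = 0.581), Itgav relative to Itga5 (-0.12, 0.705) and Itgb5 relative to Itgb1 (0.068, 0.705) did not pass.

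Subunits that form 1 receptor were also compared across libraries within each group, as 14 relations. In the 12 libraries labelled LOXL2_KO, Itgav and Itgb3 varied together. Pearson's r was 0.81 (adjusted p = 0.0136, from a permutation p of 0.00194) and Spearman's rho 0.80 (adjusted p = 0.0174, from a permutation p of 0.00249). Once the 2 libraries most extreme in Itgav were removed, r was 0.79. Itgam and Itgb2 did as well, with an r of 0.89 (adjusted p = 0.00098, from a permutation p of 7e-05), a rho of 0.81 (adjusted p = 0.0174, from a permutation p of 0.0022) and an r of 0.78 once the 2 most extreme in Itgam were removed. In the 8 controls the same 2 relations had an r of 0.57 (adjusted p = 0.304, exact permutation p of 0.141) with a rho of 0.19 (adjusted p = 0.716, exact permutation p of 0.665), and an r of 0.81 (adjusted p = 0.0613, exact permutation p of 0.0131) with a rho of 0.81 (adjusted p = 0.0762, exact permutation p of 0.0218). None of the other 10 relations passed, among them Itga5, Itga10 and Itga11 with Itgb1, whose r lay between 0.065 and 0.57. Both members of a pair share each library's scaling, and with library totals alone in place of TMM 6 of the 14 passed. Pairs of members that are not partners were not compared, so whether these relations are particular to partners was not tested. LOXL2_KO 2 was the highest of its group in Itgb3 and Itgav. It was also the highest in Itga2, Itgb7 and Sdc1, which do not pair with either.

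Set per kilobase of exon, the order of the members was led by Itgb1 (77.0 CPM per kb in the controls and 97.5 in the libraries labelled LOXL2_KO) and Itgb5 (54.8 and 73.4), followed by Sdc4, Sdc2, Tln1 and Sdc3, which lay between 19.1 and 26.8 CPM per kb in the controls. At the other end were Itgax (0.172 and 0.644) and Itgad (0.0905 and 0.114). The largest move in rank was that of Itgb3, from 19 of 36 at 3.30 CPM per kb to 8 of 36 at 16.6 CPM per kb, so that its level passed that of Itga7, Itga10 and Itga11. For Itga10 this is uncertain. It shares 33.5% of its exon bases with Gm42957 on the same strand, and how reads there were counted is not given. Sdc1 went from 12 to 7, Itgb6 from 14 to 20 and Itga7 from 7 to 12.

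Genes that work with the members were taken from 3 further lists, of which 95 were tested and 33 called, 30 higher and 3 lower. Of 39 cytoplasmic adhesion genes tested 11 rose and 0 fell at an adjusted p under 0.05, with 19 of the 39 at an unadjusted p under 0.05 (edgeR), where 23.0% of all tested genes were called and 37.0% had such an unadjusted p. The largest rises were in Ptk2b (the kinase PYK2, from 4.30 ± 2.18 to 11.5 ± 6.79 CPM, log2 fold change 1.43, SE 0.35, adjusted p = 0.00703), Src (from 13.5 ± 5.67 to 33.02 ± 15.0 CPM, log2 fold change 1.29, SE 0.29, adjusted p = 0.00419) and Fermt3 (kindlin-3, the integrin activator of blood cells and osteoclasts, from 5.93 ± 2.44 to 13.0 ± 5.93 CPM, log2 fold change 1.13, SE 0.29, adjusted p = 0.00871). Ptk2, the relative of Ptk2b among the members, had the log2 fold change of 0.0027 given above. Of 33 ligand genes 11 rose and 2 fell. Those named by size were Col1a1 (log2 fold change 2.50, SE 0.45, adjusted p = 0.00144), Col1a2 (log2 fold change 2.19, SE 0.42, adjusted p = 0.00204) and Tnc (tenascin-C, log2 fold change 1.70, SE 0.35, adjusted p = 0.00261), all 3 above the control median in 12 of 12, while Lama5 (a laminin chain, log2 fold change -0.61, SE 0.17, adjusted p = 0.0134) and Has3 (a hyaluronan synthase, log2 fold change -0.57, SE 0.21, adjusted p = 0.0487) fell. Fn1 (0.49, adjusted p = 0.382), Spp1 (osteopontin, 0.99, adjusted p = 0.0854) and Col2a1 (0.99, adjusted p = 0.299) did not pass in the same fit with edgeR. Of 23 other matrix receptors and proteoglycans 8 rose and 1 fell: the largest were Hmmr (a hyaluronan-binding protein of dividing cells, log2 fold change 1.46, SE 0.47, adjusted p = 0.0294), Plaur (the urokinase receptor, log2 fold change 1.35, SE 0.30, adjusted p = 0.00422) and Lair1 (an inhibitory collagen receptor of leukocytes, log2 fold change 1.29, SE 0.35, adjusted p = 0.0125), and Cd36 (which binds thrombospondin and fatty acids, log2 fold change -0.62, SE 0.19, adjusted p = 0.0239) fell. Without both libraries numbered 5, all 12 of these named genes that rose or fell stayed past the threshold in the same direction. This is a weak check of those calls, as the libraries left out were picked for resembling the other group. Without Control 6 and Control 8 the 33 calls became 21.

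Several members are known from cells other than chondrocytes, so lists of markers for 15 cell types were summed in each library and compared by the exact permutation test, adjusted over the 15. The osteoclast list (8 genes, among them Acp5 and Ctsk, all 8 called higher) summed to 152 to 1040.3 CPM (median 327) in the controls and 508 to 5593 CPM (median 1779) in the libraries labelled LOXL2_KO, higher by 2.41 on the log2 scale (exact adjusted p = 0.000774). The macrophage list (7 genes, 5 called higher) summed to 144 to 366 CPM (median 214) against 279 to 868 CPM (median 513) (higher by 1.19, exact adjusted p = 0.000774). The lists for mast cells (1.80), osteoblasts and osteocytes (1.49) and fibroblasts and tendon (0.73) were also higher, with exact adjusted p between 0.0291 and 0.0301. The skeletal muscle list was lower (-0.58, exact adjusted p = 0.0436, 3 of 8 genes called lower). The other 9 lists did not pass: differences were 1.93 for neutrophils, 1.01 for chondrocytes, 0.32 for megakaryocytes and platelets, 0.25 for T and NK cells, 0.19 for epithelial and salivary gland cells, 0.11 for Schwann cells, -0.13 for endothelial cells, -0.35 for B cells and -0.46 for adipocytes. Gp1bb of the platelet list and Matn1 of the chondrocyte list had at most 3 counts in every library. Leaving out Control 6 or Control 8 brought the 6 lists that passed to 2.

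**Figure D4:**
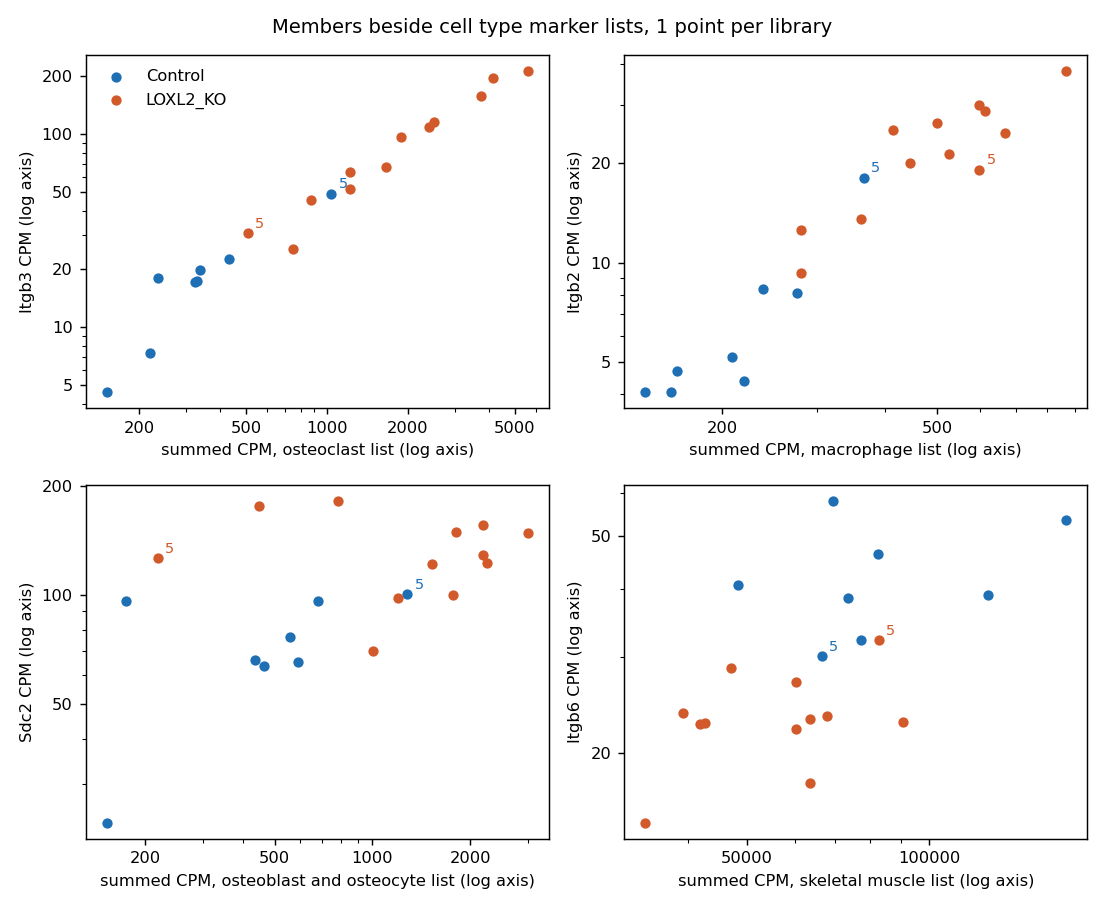
Level of 4 members against the summed level of a cell type marker list, 1 point per library, with log axes in CPM and the libraries numbered 5 marked. Itgb3 rises with the osteoclast list within each group (r = 0.92 in the controls and 0.98 in the libraries labelled LOXL2_KO), and Itgb2 with the macrophage list. The relations of Sdc2 and Itgb6 to the lists beside them did not pass the test in either group. Whether the groups share a common line was not tested.

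Within groups, 4 pairs of a member and a list, chosen after the values were seen, were compared on the log2 scale as 8 relations. The p-values therefore describe pairs picked with the values known, and both measures in a pair share each library's scaling. Itgb3 followed the osteoclast list in the 8 controls, with an r of 0.92 (adjusted p = 0.00352, from an exact permutation p of 0.00176), a rho of 0.93 (adjusted p = 0.00893, from an exact permutation p of 0.00223) and an r of 0.75 once the 2 libraries most extreme in the list were removed. In the 12 libraries labelled LOXL2_KO the r was 0.98 and the rho 0.99, each with a permutation p of 1e-05, the smallest that 100000 resamples can give (adjusted p = 8e-05), and r stayed at 0.98 with the 2 most extreme removed. Itgb2 followed the macrophage list in the controls, with an r of 0.91 (adjusted p = 0.00251, from an exact permutation p of 0.000942), a rho of 0.88 (adjusted p = 0.0193, from an exact permutation p of 0.00724) and an r of 0.81 with the 2 most extreme removed. The same held in the libraries labelled LOXL2_KO, with an r of 0.88 (adjusted p = 0.00072, from a permutation p of 0.00018), a rho of 0.73 (adjusted p = 0.0195, from a permutation p of 0.00974) and an r of 0.76 with the 2 most extreme removed. Sdc2 against the osteoblast and osteocyte list and Itgb6 against the skeletal muscle list did not pass in either group (r between -0.060 and 0.60, permutation p between 0.124 and 0.849). For Sdc2 in the controls r was 0.60 and rho 0.64, and r was 0.84 with the 2 most extreme removed.

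With the mean level of the osteoclast list as a covariate in the fit of all genes, 0 members were called by edgeR, as were 0 of all 15984 genes. At an unadjusted p under 0.05 there were 7 members (Itga5, Itgam, Itgax, Itgb1, Itgb2, Itgb6 and Cd44) and 7.86% of all genes. With the macrophage list 0 members and 0 genes were called too, with 1 member (Itgb6) and 5.31% of all genes at an unadjusted p under 0.05. Of the variance of these 2 scores, 58.7% and 62.5% lay between the groups. At an equal osteoclast score the log2 fold change of Itgb3 was 0.14 (SE 0.20), and Itga2 (-0.31), Itgav (-0.071), Itgb5 (-0.030), Itgb7 (-0.24) and Sdc1 (-0.073) were at or below 0. Itga5 (0.86, SE 0.28) and Itgb1 (0.36, SE 0.14) had values close to the 0.86 and 0.34 without it. With the macrophage score, Itgam was at 0.21, Itgb2 at 0.40, Cd44 at -0.061, Itga5 at 0.32 (SE 0.26) and Itgb1 at 0.21 (SE 0.14). Itgb6 was at -0.85 (SE 0.23) with the macrophage score and at -0.34 (SE 0.16) with the osteoclast score, against -0.86 without a covariate. With the skeletal muscle score 11 members were called, 10 higher and 1 lower, the 6 lost being Itgav, Itgb5, Itgb7, Sdc2, Sdc3 and Ddr2, where 7.83% of all genes were called. Since these scores differ between the groups themselves, a fold change at an equal score is not separate from the makeup of the samples, and the part of each cell type in the members' differences was not tested.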

How the data were processed

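Bulk RNA was sequenced from 20 mouse TMJ condyle samples. The authors trimmed the reads, mapped them to mm10 and counted them per gene with featureCounts; the deposited values are raw counts per Ensembl gene. The aligner, annotation release, strand setting and handling of multi-mapping reads are not given in the sources used here, and members that share exon bases with other genes are named in the text. Genes were named through GENCODE M21 on GRCm38 (54495 of 54532 identifiers matched), which also gave positions and exon lengths.

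Members and lists were chosen with earlier results of these data known. Groups were taken from the labels, Control (n = 8) and LOXL2_KO (n = 12), and no batch or sex is labelled. Libraries were scaled by TMM in edgeR 4.0.16, genes filtered with filterByExpr (15984 kept), and LOXL2_KO tested against Control with the quasi-likelihood F-test, adjusted by Benjamini-Hochberg over all tested genes, with a threshold of 0.05. CPM are counts per 1000000 of the TMM-scaled total. Depth was 11153820 to 27045668 counts per library, and the smallest chi-square between any of the 190 pairs of libraries was 32.9 per degree of freedom, so that no 2 libraries agreed within sampling noise. The study's methods give 8 vehicle and 12 tamoxifen mice, the same numbers as the libraries. The labels do not tie a library to an animal, so p-values measure the spread between libraries. Ratios used log2 CPM with a prior count of 2. All members are named; lowest, median and highest values are given for each member past the threshold and for the member highest per kilobase in each role group, and from each related list the 3 higher and 3 lower genes past the threshold with the largest change. On simulated counts in which 200 of 15984 genes were given a log2 change of 1.5, edgeR called 79.0% of them (4.24% of its calls were unchanged genes). DESeq2 called 85.5% of them (14.1% of its calls were unchanged genes). The median log2 fold change of the members was 0.51, and the simulation held no differences in sample makeup. These shares therefore do not tell how often a call among the members is missed or false. Alternatives were other scalings and filters, DESeq2 1.42.0, a replicate block, marker list covariates and omission of libraries. Those that omit the libraries numbered 5, LOXL2_KO 12 or Control 6 and Control 8 were chosen after seeing the data. Promoter sequences were RefSeq's (26 of 36 members, 31 entries, of which 29 start within a GENCODE transcript of their gene).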

Additional observations from a re-analysis of the deposited data

Results flagged for a closer look

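In the 8 controls, 58 values (36 members, 7 ratios and 15 marker list sums) were examined for a library far from the rest. Dixon's criterion at the 95% level was used, and 8 met it. Chance meets it in about 1 of 20 groups if the values are normally distributed. Levels and list sums were taken as CPM without logs, and all 8 lay above the other controls, so that rate need not hold here. Itga4 had 14.1 CPM in Control 8 and Itgad had 1.52 CPM in Control 3. Itgb2 had 18.05 CPM and Itgb3 49.2 CPM in Control 5, each the highest control. In the same library the osteoclast list summed to 1040.0 CPM, the osteoblast and osteocyte list to 1281 CPM and the B cell list to 28.9 CPM. The mast cell list summed to 19.7 CPM in Control 1. Without both libraries numbered 5 the log2 fold changes were 2.04 for Itgb2 and 2.77 for Itgb3, against 1.66 and 2.33 with all libraries, and both stayed past the threshold. That omission tends to widen differences, since the libraries were picked for resembling the other group.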

How the results depend on the processing

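Members called stayed within 1.5 times the 17 reported with DESeq2 size factors (17), library totals alone (17), no filter (16), a mean of at least 1 CPM (17), DESeq2's Wald test (21, with Itga2b, Itga10, Itga11 and Sdc4 added) and without any 1 library (16 to 21, 15 to 20 higher, 1 lower in each), and with library totals alone the median of all genes moved from -0.02 to 0.12. Related genes called ranged from 27 to 38 when 1 library was left out (25 to 35 higher, 1 to 4 lower, and 1 lower without Control 6 or Control 7), subunit ratios past the threshold from 2 to 4 and marker lists past it from 2 to 8. With the osteoclast or the macrophage list as a covariate, 0 members (0 higher, 0 lower) and 0 related genes (0 higher, 0 lower) were called. With the skeletal muscle list 11 members (10 higher) and 16 related genes (16 higher, 0 lower) were called. Without Control 6 and Control 8, 10 members (9 higher) and 21 related genes (19 higher) were called. Partner correlations past the threshold were 6 with library totals alone, against 2. The cause of these moves was not tested.

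Replicate numbers are shared by 8 libraries of each group, but same-numbered libraries did not deviate together (correlations of -0.36 to 0.17), so the numbers were not taken to pair them. A replicate block over these 16 libraries gave 12 members (11 higher, 1 lower) and 22 related genes (1 lower), where 11.5% of all genes were called. The same 16 libraries without the block gave 18 members and 32 related genes (2 lower), where 21.1% were. The 6 members past the threshold only without it were Itga2b, Itgb1, Itgb5, Sdc3, Ddr2 and Tln1, whose log2 fold changes moved little (0.94, 0.35, 0.48, 0.91, 0.71 and 0.43 with the block, 0.93, 0.35, 0.50, 0.87, 0.70 and 0.43 without it).

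Directions turned as follows in log2 fold change. With the osteoclast covariate these were Itga2 -0.31, Itga10 -0.0073, Itga3 0.049, Itga6 0.20, Itga7 0.11, Itgav -0.071, Itga4 0.081, Itga9 -0.12, Itgal -0.69, Itgb4 -0.71, Itgb5 -0.030, Itgb7 -0.24, Sdc1 -0.073. With the macrophage covariate they were Itga3 0.32, Itga8 -0.0016, Itga4 0.0092, Itga9 -0.089, Itgb4 -0.56, Sdc2 -0.035, Cd44 -0.061, Ddr1 0.0031, Ddr2 -0.0045, Vcl -0.21, Ptk2 -0.0012. The skeletal muscle covariate gave Itga3 0.028, Itga8 -0.038, Itgb4 -0.37, Vcl -0.062, Ptk2 -0.022. Library totals alone gave Itga3 0.13, Itga6 0.081, Itga7 0.0056, Itgb8 0.068, Ddr1 0.12, DESeq2 size factors Ptk2 -0.0078 and DESeq2's Wald test Ptk2 -0.0096. The replicate block gave Itga3 0.030, Itga6 0.061, Itgb8 0.40, Ddr1 0.044, Ptk2 -0.0051, and the same 16 libraries without it Itga3 0.010, Ddr1 0.020, Ptk2 -0.0057. Without both libraries numbered 5 they were Itgb8 0.26, Vcl -0.090, Ptk2 -0.030, without these and LOXL2_KO 12 Itgb8 0.39, Vcl -0.049, and without Control 6 and Control 8 Itga3 0.046, Itga6 0.046, Itgb4 -0.26, Ddr1 0.0094, Vcl -0.011, Ptk2 -0.029. When 1 library was left out the members whose sign turned ranged over Ddr1 -0.13 to 0.089, Itga3 -0.089 to 0.10, Itga4 -0.54 to 0.0063, Itga6 -0.14 to 0.10, Itgb4 -0.23 to 0.29, Itgb8 -0.32 to 0.77, Ptk2 -0.033 to 0.040, Vcl -0.064 to 0.15.

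Depth limits the rare members most: Itgad had at most 1.52 CPM and Itgae at most 1.58 CPM in any library, while a count of 3 corresponds to 0.096 to 0.246 CPM.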
